A study of Mus musculus with 2 samples.

Results

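Ifnb1, the gene for the secreted type I interferon called interferon beta, was followed in single-cell RNA sequencing (scRNA-seq) of mouse colon. It is 1 of 31053 features in the deposited tables (ENSMUSG00000048806). In the annotation it lies on the minus strand at chr4:88522025-88522774 (GRCm38, GENCODE M21) as 1 exon of 750 bases, whose coding part covers bases 88522229 to 88522774 and whose 3′ untranslated part covers the remaining 204 bases. An Ifnb1-positive cell is a cell with at least 1 unique molecular identifier (UMI, the tag of 1 captured RNA molecule) of Ifnb1. The gene was chosen by its measured level in these libraries, and positive cells were selected on the same measure, so its own levels are given as a description with no test. Positive cells numbered 128 of 2514 cells in the knockout library and 2 of 2597 in the wild-type library.

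Both libraries came from the colon lamina propria of male C57BL/6J-background mice aged 8 weeks, and 1 library was made per genotype from pooled mice (6 in the pooled sample, with the number per genotype left unclear by the study). Wild-type (WT) mice were compared with mice whose labels read LncRNA17Rik knockout (KO), in which the study removed a long non-coding RNA, lncLy6c, from the whole animal with CRISPR-Cas9. The name in the labels could not be tied to a feature of the tables, so the deletion was not checked in these counts. Percoll separation, antibody sorting and a dead-cell stain preceded capture. Although the label reads cd11b+, clusters of epithelial, T, B, plasma and fibroblast-like cells were present in both libraries. WT held 3185 barcodes and KO 3020, with medians of 5073 and 6564.5 UMIs per kept cell, and the 1 barcode that both libraries shared was not among the kept cells. With 1 library per genotype and cells of 1 library as members, no difference below has a replicate check, and no p-value was made from cells. Intervals are exact 95% intervals that cover counting error only.

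Interferon beta is made when receptors for foreign or misplaced nucleic acid and for bacterial products (Tlr3, Tlr4, Ifih1, Ddx58, Mb21d1) signal through adaptors (Ticam1, Mavs, Tmem173) to the kinase Tbk1. The kinase activates the interferon regulatory factors Irf3 and Irf7, which bind together with NF-kB and AP-1 just upstream of the gene. The secreted protein acts on the same and on neighbouring cells through Ifnar1 and Ifnar2, the kinases Jak1 and Tyk2 and factors that include Stat2 and Irf9, and induces the interferon-stimulated genes (ISGs). Macrophages and dendritic cells are well-known sources.

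The upstream sequence of Ifnb1 and of 5 genes whose levels were higher in positive cells of at least 1 class (Cxcl3 in resident macrophage-like but not cDC2-like cells) is shown here, because these stretches hold the letters that regulatory factors of this pathway are known to bind. Sequences are from RefSeq (GRCm38.p6), 5′ to 3′ on the gene's strand, and lie upstream of the RefSeq transcript start. Capitals mark an interferon regulatory factor element (AANNGAAA) or a kB element (GGGANNTTCC), each searched on both strands.
Ifnb1, chr4:88522795-88523044, minus strand: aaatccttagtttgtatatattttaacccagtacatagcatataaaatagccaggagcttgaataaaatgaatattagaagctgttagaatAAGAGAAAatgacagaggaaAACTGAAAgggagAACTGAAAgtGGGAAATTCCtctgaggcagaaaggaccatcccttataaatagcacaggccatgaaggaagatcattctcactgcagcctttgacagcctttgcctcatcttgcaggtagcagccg
Cxcl10, chr5:92349019-92349122, minus strand: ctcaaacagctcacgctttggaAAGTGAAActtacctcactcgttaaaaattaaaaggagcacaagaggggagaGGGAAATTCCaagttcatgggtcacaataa
Isg15, chr4:156200855-156200916, minus strand: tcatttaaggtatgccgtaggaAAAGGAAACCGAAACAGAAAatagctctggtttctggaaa
Ifit1, chr19:34640765-34640833, plus strand: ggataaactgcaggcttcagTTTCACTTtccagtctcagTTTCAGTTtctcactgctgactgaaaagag
Rsad2, chr12:26456543-26456592, minus strand: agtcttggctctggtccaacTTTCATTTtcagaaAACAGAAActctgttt
Cxcl3, chr5:90786008-90786058, plus strand: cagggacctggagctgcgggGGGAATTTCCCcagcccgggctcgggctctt

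The Ifnb1 window covers the 250 bases before the start and held 3 IRF elements and 1 kB element, whose first bases lie between 159 and 116 bases before the start. The longer core of the interferon-stimulated response element, GAAANNGAAA, which contains the IRF element, was not found in it. Over the 250 bases before the start, 23.9% of the 27025 genes in the promoter table held the IRF element, 3.46% the longer core and 1.36% the kB element. The match at Cxcl3 reads as a kB element on both strands. A match is a description of letters, not evidence of binding.

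KO cells carried 776 Ifnb1 UMIs, or 34.7 CPM (Ifnb1 UMIs scaled to a total of 1000000 UMIs, interval 32.3 to 37.3), against 4 UMIs in WT cells (0.211 CPM, 0.0574 to 0.539). The share of positive cells was 5.09% in KO (4.27 to 6.02) and 0.0770% in WT (0.00933 to 0.278). The 2 WT positive cells held 2 UMIs each. The first was a cell like conventional type 2 dendritic cells (cDC2-like), and the other belonged to an unnamed cluster led by Inhba, Ly6i and Fcgr1. Ifnb1 was therefore near 0 in WT and present in a minority of KO cells.

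In KO, positive cells were most frequent among resident macrophage-like cells, whose cluster was led by Mmp13, C1qa and C1qc. In this class 42 of 130 KO cells were positive (32.3%, 24.4 to 41.1), while 0 of 277 WT cells were, which allows a share of up to 1.08% by 3 counts of the total and 1.32% by the exact interval. An unnamed cluster led by Retnla, Lpl and Fn1 had 13 of 122 positive (10.7%, 5.80 to 17.5). The Inhba, Ly6i and Fcgr1 cluster had 14 of 148 (9.46%, 5.27 to 15.4), against 1 of 427 in WT. The cDC2-like class had 38 of 523 (7.27%, 5.19 to 9.84), against 1 of 258 in WT. Of these 38 cells, 37 were among the 405 cells of the cluster led by Cd209a and Mgl2 and 1 among the 118 of the cluster led by Plet1. The resident macrophage-like share was the highest of these, as a description over the cells of 1 library and not a test. That share depended on where the class was bounded, and was 19.3% with a coarser clustering and 21.2% with the KO library clustered alone, where cDC2-like cells had 6.46% and 9.94%.

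Lower shares were seen in mature dendritic cell-like cells (2 of 37), a shallow cluster led by Gm26917 (3 of 61), cDC1-like cells (6 of 200, or 3.0%) and inflammatory monocyte-like cells (5 of 293, or 1.71%, each with 1 UMI). In neutrophil-like cells 2 of 281 were positive, with 7 UMIs between them. No Ifnb1 UMI was found in B cell-like, natural killer cell-like, fibroblast-like, epithelial cell-like or plasma cell-like KO cells or in a small unnamed cluster led by Batf3, of which B cell-like cells were the most numerous at 86. T and B cells, which are not known as main sources of interferon beta, gave the background. T cell-like cells were positive in 1 of 110 and B cell-like cells in 0 of 86 (up to 3.49% by 3 counts of the total and 4.20% by the exact interval), at median depths of 5842 and 4407.5 UMIs, against 7425 UMIs in resident macrophage-like cells. Eosinophil-like cells were positive in 2 of 409 at 971 UMIs. No cluster was called plasmacytoid dendritic cell-like, a type known for high interferon output.

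**Figure D1:**
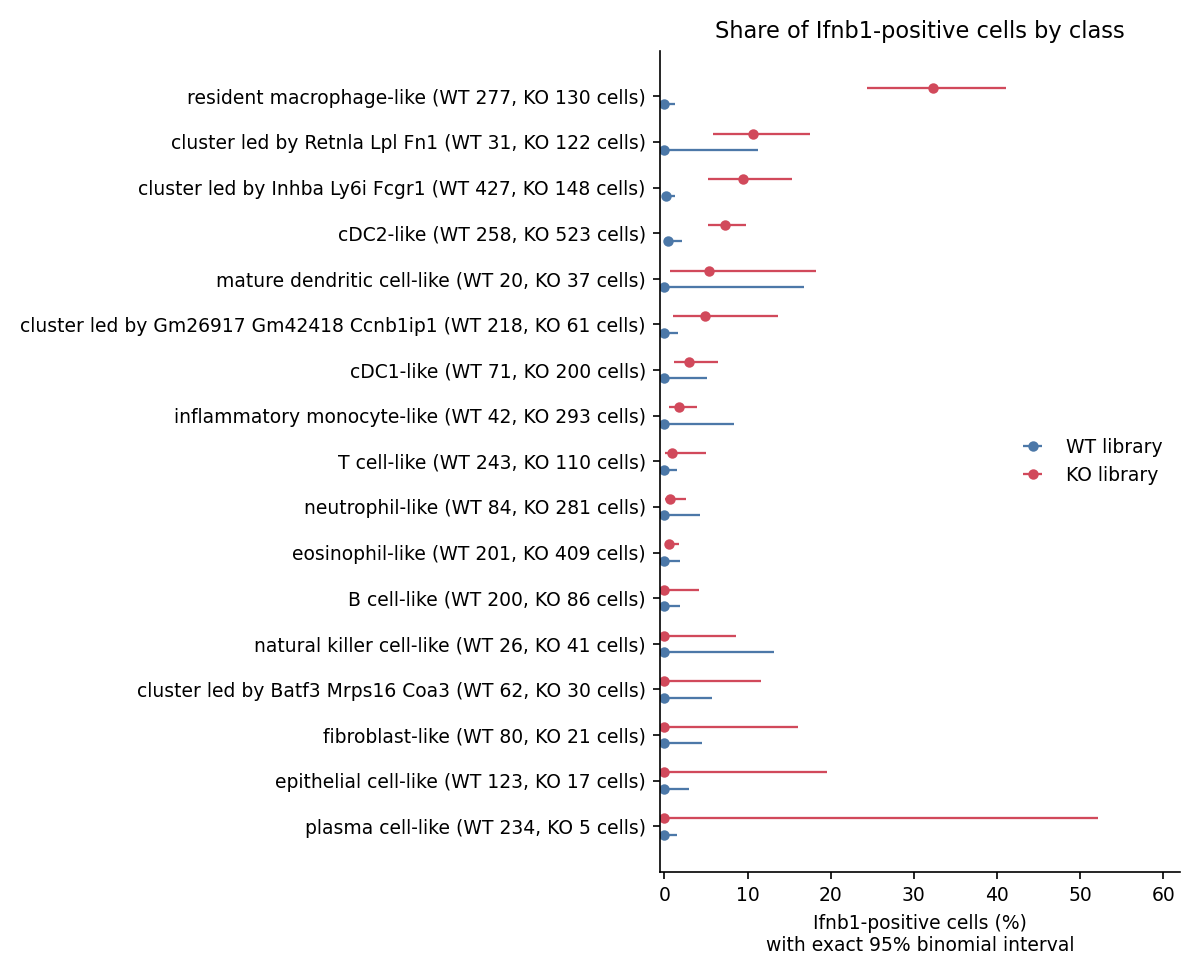
Share of cells with at least 1 Ifnb1 UMI (horizontal axis, %) in each class or unnamed cluster (rows, with cell numbers), for the WT library (blue) and the KO library (red), with exact 95% binomial intervals. The KO resident macrophage-like share, 32.3% in this clustering, is the highest, and no WT class exceeds 0.388%.

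Depth changed the distance between classes. Thinned to 2000 UMIs per cell, resident macrophage-like KO cells were positive in 25 of 112 (22.3%, 15.0 to 31.2) and cDC2-like cells, which were the deeper at a median of 14293 UMIs, in 8 of 513 (1.56%, 0.676 to 3.05). The Inhba cluster then gave 7 of 133 (5.26%) and the Retnla cluster 4 of 114 (3.51%). The resident macrophage-like class was again the highest of these 4. Outside them, 2 of 36 mature dendritic cell-like cells (5.56%, 0.680 to 18.7) and 1 of 26 eosinophil-like cells were positive. On the CPM scale the resident macrophage-like class was also at the top, at 238 CPM (210 to 268). The Inhba cluster had 134 CPM, the Retnla cluster 62.5 and cDC2-like cells 24.3. Mature dendritic cell-like cells had 26.8 CPM from 15 UMIs, and the Gm26917 cluster 37.6 from 3 UMIs.

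Positive cells differed widely in how much Ifnb1 they held. Resident macrophage-like positive cells ranged from 1 to 28 UMIs with a median of 3.5, and 9 of the 42 held 1 UMI, 16 held 2 to 4, 15 held 5 to 19 and 2 held 20 or more. The 5 cells with the most held 37.1% of the class's 267 UMIs. The cDC2-like positive cells ranged from 1 to 47 with a median of 2, and 14 of the 38 held 1 UMI. In the Inhba cluster 1 cell held 109 of 191 UMIs, and the top 5 held 91.6%, so the CPM of that cluster rests on few cells. A level per class is thus a mixture of many cells at 0 and a few at high counts.

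**Figure D2:**
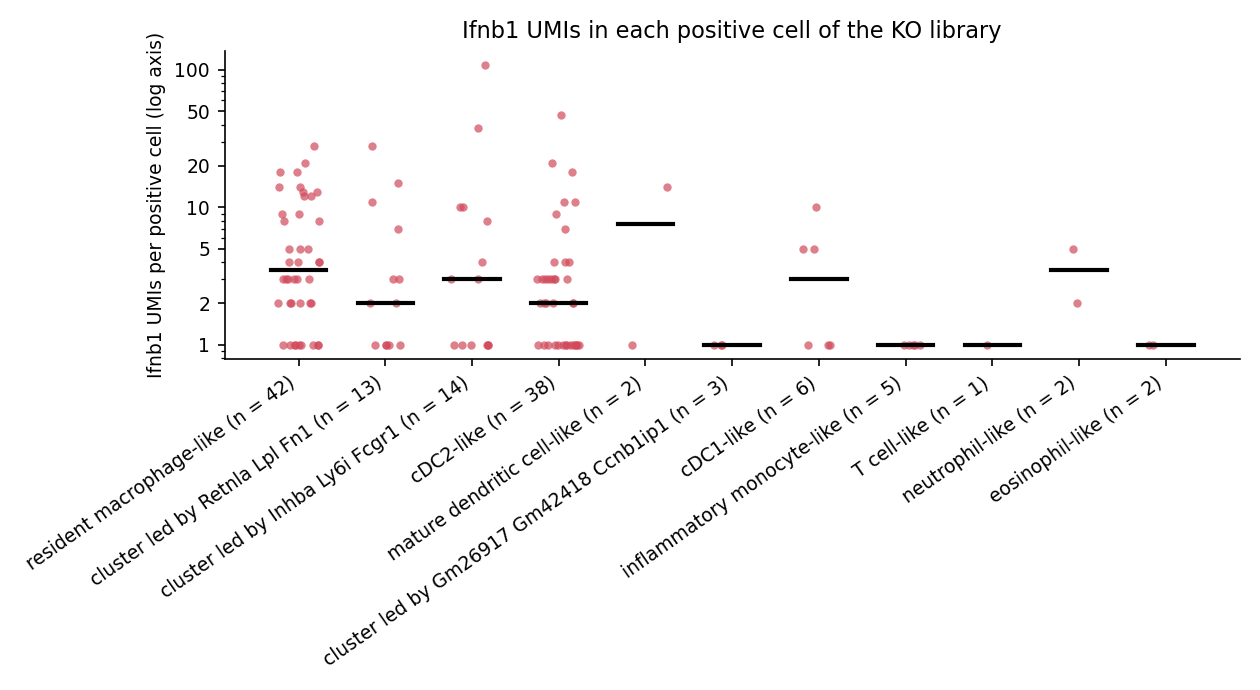
Ifnb1 UMIs (log axis) in each positive KO cell, by class or cluster, with 1 point per cell and the median as a bar. Resident macrophage-like cells spread from 1 to 28 UMIs, and the highest cell, at 109, belongs to the cluster led by Inhba, Ly6i and Fcgr1.

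To describe what else positive cells expressed, each positive KO cell was paired with the negative cell of its class closest in total UMIs. All 42 resident macrophage-like and all 38 cDC2-like positive cells found a partner. The median depth was 8688.5 UMIs in positive and 8347 in matched negative resident macrophage-like cells, and 16209.5 and 16223 in cDC2-like cells. UMIs were summed over each set, and the log2 ratio of positive over negative was taken with 10 CPM added to both. The interval printed after a ratio is that of the log2 ratio without the added 10 CPM, so it is not centred on the ratio it follows and lies farther from 0 for low genes. Genes with at least 30 UMIs over both sets counted as measured, and at least 2-fold was the mark for higher or lower. In resident macrophage-like cells 80 of 3093 measured genes (2.59%) were at least 2-fold higher in positive cells and 86 (2.78%) at least 2-fold lower. In cDC2-like cells the numbers were 130 of 3946 (3.29%) and 67 (1.7%). These percentages are the background against which the gene lists below are read.

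ISGs stood above that background in both classes. Of 30 listed, 14 were measured in each class, 9 were at least 2-fold higher in positive cells in each and 0 were lower, with a median log2 ratio of 1.36 in resident macrophage-like and 1.32 in cDC2-like cells, against -0.08 and 0.03 over all measured genes. The resident macrophage-like median was 0.56 with 9 of 21 higher under a coarser clustering, and 0.95 with 7 of 17 higher when all genes were allowed among the variable genes. Ifit1, an inhibitor of the translation of foreign RNA, had 89 UMIs in positive and 17 in negative resident macrophage-like cells (log2 ratio 2.14, interval 1.61 to 3.21) and 256 against 20 in cDC2-like cells (3.33, interval 3.02 to 4.41). Rsad2, the antiviral enzyme viperin, had 350 against 47 (2.78, interval 2.44 to 3.35) and 143 against 12 (3.04, interval 2.73 to 4.56), with 64.0% and 80.4% of the positive UMIs in 5 cells. Isg15, a ubiquitin-like protein, had 349 against 119 (1.50, interval 1.23 to 1.85) and 581 against 127 (2.14, interval 1.91 to 2.48). The ratio of Ifit2, a relative of Ifit1, was the highest named in resident macrophage-like cells, at 119 against 5 UMIs (3.78, interval 3.29 to 6.20), but 78.2% of the 119 came from 5 cells. In the same class Oasl1, a 2′-5′ oligoadenylate synthetase-like protein, had 270 against 87 (1.57) and Rtp4 30 against 6 (1.76). The listed Bst2 and Trim30a stayed within 2-fold in both classes, so not every listed gene was higher.

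Summed per cell, the listed ISGs also separated most positive cells from most negative ones. In resident macrophage-like cells the median was 5720 CPM in positive, 1876 in matched negative and 1907 in WT cells, and the lowest positive cell had 1758. In cDC2-like cells it was 4033 in positive, 609 in matched negative and 738 in WT cells. The ranges overlapped, since the highest matched negative cell reached 7211 in the first class and 6357 in the second. By these medians negative KO cells were near WT cells, but pooled over cells the cDC2-like sum was 1035 CPM in matched negative and 1546 CPM in WT cells, and single members differed. Irf7, the factor that amplifies interferon genes, had 10.4 CPM in matched negative and 23.1 in positive resident macrophage-like cells but 112 CPM in WT, and in cDC2-like cells 9.85, 8.21 and 70.5 CPM.

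Part of the ISG difference came from few cells. Without the 5 resident macrophage-like cells richest in Ifnb1, 4 of 13 measured ISGs were at least 2-fold higher, in place of 9 of 14, and the median log2 ratio was 0.82. Ifit2 then had 2.87, Rsad2 2.03 and Ifit1 1.48, while Oasl1 had 0.87. In cDC2-like cells 7 of 11 ISGs were at least 2-fold higher without the 5 richest cells, with a median of 1.58.

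Chemokines were also above the background in both classes. In cDC2-like cells 7 of 11 measured were at least 2-fold higher and 0 lower, with a median of 2.12. Against all negative cells 7 of 14 were, with a median of 1.11. The median was 1.67 (9 of 11 higher) when matched within the same cluster and 1.64 (8 of 11) with the KO library clustered alone. Ccl5, which attracts T cells and natural killer cells, had 1001 UMIs in positive and 54 in matched negative cells (4.07, interval 3.82 to 4.63) and was found in 25 and 11 of 38 cells. Its ratio was 3.25 against all negative cells, 2.75 with the KO library clustered alone and 2.81 when matched within the same cluster, where Rsad2 (3.30) and Ifit1 (2.94) were above it. Cxcl10, an interferon-induced chemokine that is on both lists, had 675 against 63 (3.30, interval 3.05 to 3.82) and a ratio of 2.47 within the same cluster and 2.44 against all negative cells. The macrophage inflammatory proteins Ccl4 and Ccl3 had 2454 against 368 (2.72) and 334 against 72 (2.12), and Ccl4 was found in 37 of 38 positive and 18 of 38 negative cells. Ccl17, a ligand of Ccr4, had 1050 against 202 (2.34), with 64.6% of the positive UMIs in 5 cells. Its ratio was 1.67 within the same cluster and 1.13 when positive meant 2 or more Ifnb1 UMIs.

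In resident macrophage-like cells 7 of 13 measured chemokines were at least 2-fold higher, 2 were lower and the median was 1.13. Ccl4 had 7688 against 2987 UMIs (1.34, interval 1.28 to 1.41), Cxcl10 867 against 326 (1.38), Ccl5 388 against 151 (1.32) and Cxcl3, a neutrophil attractant, 149 against 36 (1.92, with 76.5% of the positive UMIs in 5 cells, and 0.71 with the KO library clustered alone). The lower pair was Ccl17, at 1 against 103 UMIs, and Ccl22, at 7 against 35. The 103 Ccl17 UMIs came from 5 negative cells. The 7 listed markers of mature dendritic cells summed to 166 UMIs in negative and 23 in positive cells. Of these sums Ccr7 gave 101 and 13 and Ccl22 itself 35 and 7. Il4i1 gave 24, from 1 negative cell, and 0. The T cell markers summed to 24 UMIs in negative and 0 in positive cells. The 8 neutrophil markers summed to 80 and 93 UMIs, with S100a8 and S100a9 higher in positive cells (30 against 6 and 35 against 10) and Retnlg lower (0 against 40), and the 9 inflammatory monocyte markers to 153 and 77. The part of neutrophil and monocyte RNA in the contrast was not tested. For the dendritic and T cell markers, in an alternative chosen after seeing the data, cells with a UMI of Ccr7, Fscn1, Cd3d, Cd3e or Cd3g were left out. Then 5 of 11 chemokines and 9 of 12 ISGs were at least 2-fold higher. Without the 5 cells richest in Ifnb1, 3 of 11 chemokines were.

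**Figure D3:**
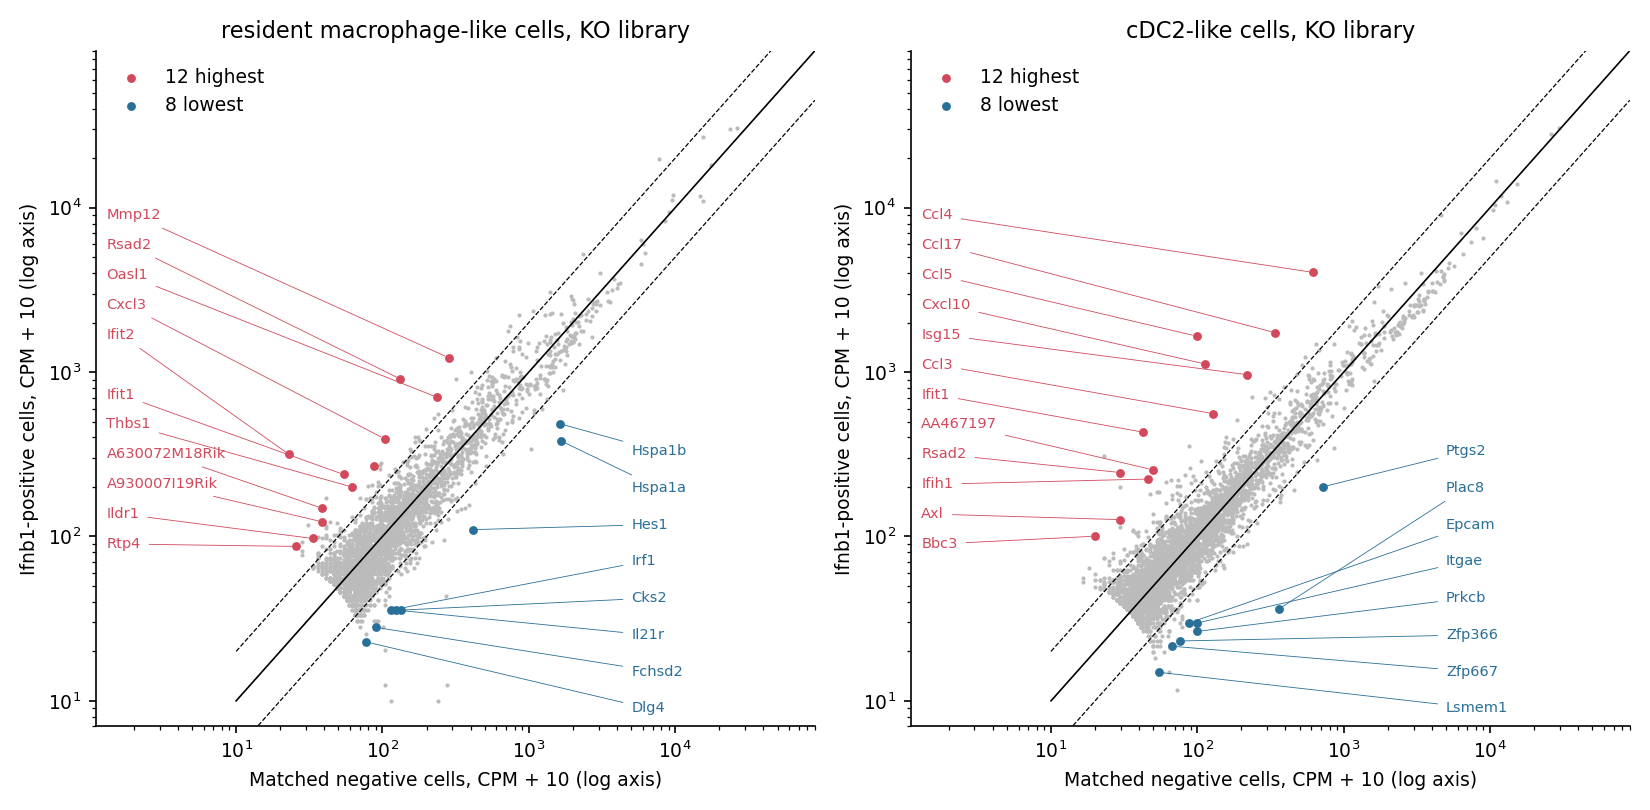
Level of each measured gene in matched negative cells (horizontal) and Ifnb1-positive cells (vertical) of the KO library, as CPM + 10 on log axes, for resident macrophage-like (left) and cDC2-like cells (right). The solid line marks equal levels and dashed lines 2-fold, red points are the 12 highest and blue points the 8 lowest genes, labelled where they are reported, and Ccl5 (log2 ratio 4.07) and Ifit2 (3.78) lie farthest above the line.

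Inflammatory cytokines were mixed. Tnf was higher in positive cells of both classes, at 914 against 410 UMIs in resident macrophage-like cells (1.13, interval 0.97 to 1.31) and 104 against 23 in cDC2-like cells (1.92, interval 1.51 to 2.90). So was Il10, an anti-inflammatory cytokine, at 692 against 273 (1.31) and 77 against 24 (1.47). Il6 (124 against 31, or 1.81) and Il12b (211 against 47, or 2.03) were higher in cDC2-like cells, and 91.5% of the Il12b UMIs came from 5 positive cells. Il1b stayed within 2-fold, at -0.03 in resident macrophage-like and 0.81 in cDC2-like cells. Ptgs2, the inducible prostaglandin synthase, was lower in cDC2-like positive cells at 116 against 433 UMIs (-1.85, interval -2.21 to -1.60) and had a ratio of 0.38 in resident macrophage-like cells. Of the 11 measured members, 3 were higher and 0 lower in resident macrophage-like cells, and 4 were higher and 1 lower in cDC2-like cells.

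Adaptors and kinases were close to even, while 2 of the 3 measured sensors were higher in cDC2-like cells. Of the adaptors and kinases, 6 were measured in resident macrophage-like and 7 in cDC2-like cells, and 0 reached 2-fold in either direction. Tbk1 had 29 against 28 UMIs and 27 against 31, and Myd88 26 against 25 and 25 against 29. Among the sensors 3 were measured in each class. Ifih1, the RNA sensor MDA5 and itself an ISG, had 130 against 22 UMIs in cDC2-like cells (2.28, interval 1.90 to 3.29) and 117 against 59 in resident macrophage-like cells (0.92, interval 0.51 to 1.45). Its cDC2-like ratio was 1.28 when matched within the same cluster, 1.66 with the KO library clustered alone and 3.41 when positive meant 2 or more Ifnb1 UMIs. Tlr2 was the other sensor at least 2-fold higher in cDC2-like cells, and 0 were in resident macrophage-like cells.

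Of the factors that act at the Ifnb1 enhancer, 8 were measured in resident macrophage-like cells and 9 in cDC2-like cells. Irf1 was lower in resident macrophage-like positive cells, at 10 against 40 UMIs (-1.68, interval -3.18 to -0.99), and found in 5 positive against 18 negative cells. It had -0.63 under a coarser clustering and -0.78 with the KO library clustered alone. In cDC2-like cells Irf1 had 48 against 26 (0.75), so the direction was not shared. Jun, a part of AP-1, had 129 against 394 in resident macrophage-like cells (-1.60, interval -1.93 to -1.34) and 82 against 89 (-0.11) in cDC2-like cells, and no immediate early gene, Jun included, was at least 2-fold lower under a coarser clustering. Irf8 was lower in cDC2-like positive cells at 6 against 24 (-1.32, interval -3.58 to -0.67), found in 3 positive and 7 negative cells. Of the 38 matched negative cells 11 came from the cluster led by Plet1, against 1 positive cell. The part of this in the Irf8 ratio was not tested. The NF-kB subunits Rela and Nfkb1 lay between 0.06 and 0.58. The NF-kB feedback genes, 22 measured in each class, held 1 at least 2-fold higher, Tnip1 in resident macrophage-like cells (1.05), and 0 lower. Nfkbia, the inhibitor of NF-kB, had ratios of 0.17 in both classes. The mRNA decay and signal-limiting genes, among them Zfp36, Dusp1 and Socs3, held 0 of 12 past 2-fold in either class.

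Of the 7 interferon receptor signalling genes, 4 were measured in resident macrophage-like and 7 in cDC2-like cells, and those measured were within 2-fold. Stat2 had 50 against 26 UMIs (0.81) and Irf9 28 against 15 (0.69) in cDC2-like cells. The other type I and type III interferon genes, 19 in the tables, were almost silent. They had 3 UMIs in positive and 0 in negative resident macrophage-like cells, and 0 and 1 in cDC2-like cells. None of them reached the number of UMIs needed to count as measured.

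Some immediate early and heat shock genes were at least 2-fold lower in resident macrophage-like positive cells. Jun, Egr1, Ier2, Nr4a2 and Btg2, 5 of 18 measured, were at least 2-fold lower and 0 higher, with a list median of -0.67, and Egr1 had 298 against 659 UMIs (-1.15). In cDC2-like cells 0 of 19 passed 2-fold in either direction (median -0.11). The chaperones Hspa1a and Hspa1b had 145 against 631 (-2.11, interval -2.41 to -1.88) and 185 against 624 (-1.75, interval -2.02 to -1.53) in resident macrophage-like cells, and 105 against 92 and 106 against 115 in cDC2-like cells. Of the 11 measured heat shock genes 2 were lower and 0 higher in the first class, and 1 was lower (Hsph1) and 1 higher (Dnajb4) in the second. Genes of both lists are known to respond to tissue dissociation, whose part in these ratios was not tested. The median mitochondrial share was 5.31% in positive and 5.65% in matched negative resident macrophage-like cells. The count of lower immediate early genes depended on how cells were classed. With the KO library clustered alone, or with all genes allowed among the variable genes, 1 of the list was at least 2-fold lower, and with a coarser clustering 0 were. Hspa1a and Hspa1b were at least 2-fold lower in all 13 alternatives run for this class. Requiring at least 100 UMIs leaves every ratio as it was, and matching within the same cluster repeats the main run here. Those alternatives could not differ.

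**Figure D4:**
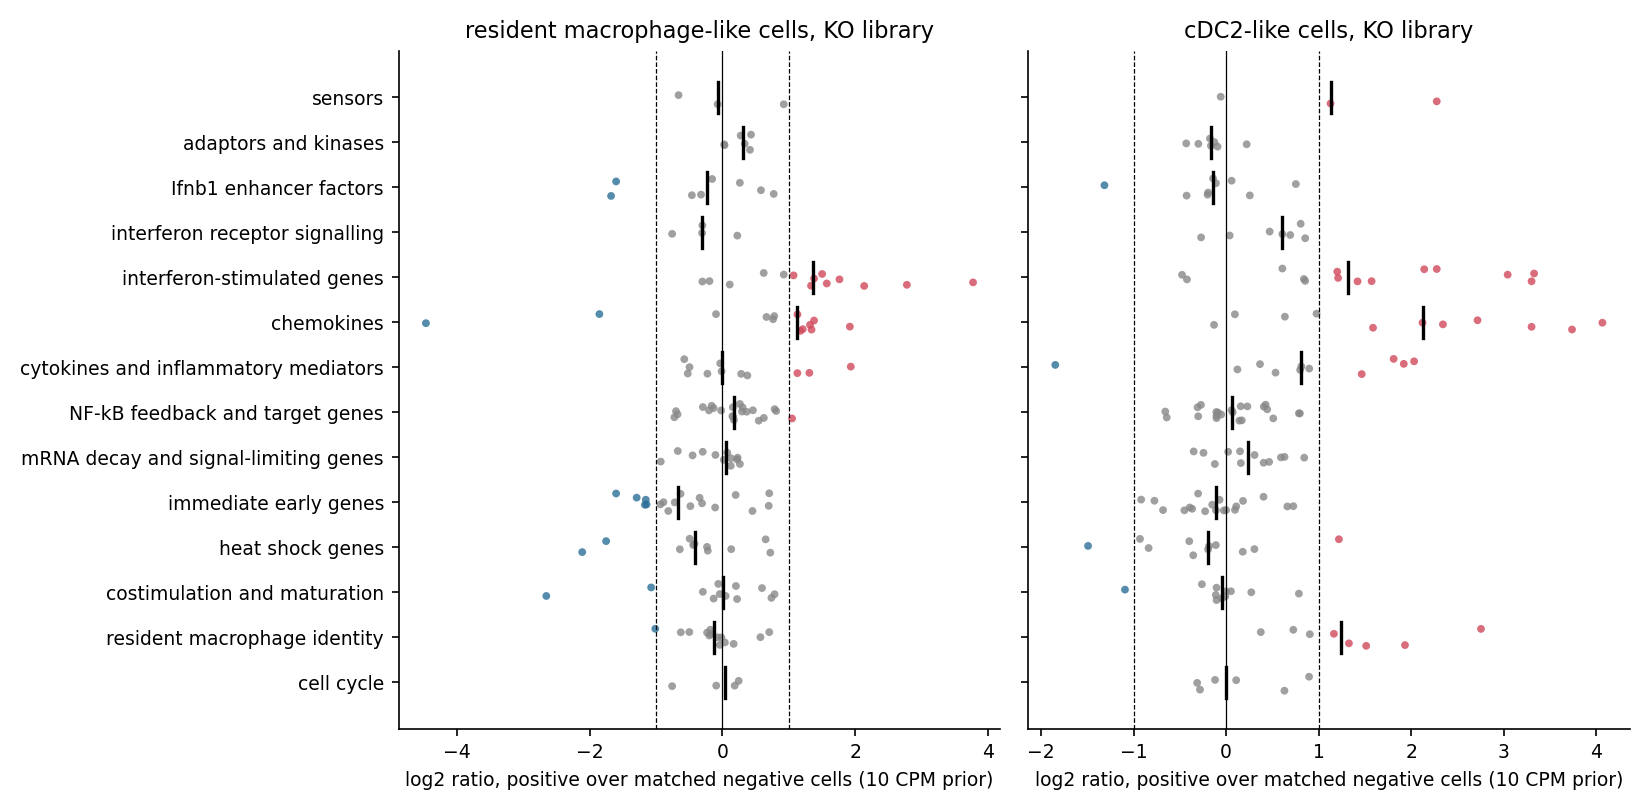
Log2 ratio of positive over matched negative KO cells (10 CPM added) for each measured gene of 14 lists, in resident macrophage-like (left) and cDC2-like cells (right), with 1 point per gene, the list median as a bar and dashed lines at 2-fold. Interferon-stimulated genes (medians 1.36 and 1.32) and chemokines (1.13 and 2.12) lie to the right in both classes, and NF-kB feedback genes center near 0 (0.17 and 0.06).

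Other named genes of the resident macrophage-like contrast were Mmp12, macrophage elastase, at 471 against 106 UMIs (2.09, interval 1.83 to 2.45), Thbs1, a matrix protein, at 74 against 20 (1.69), Ildr1 at 34 against 9, and the non-coding A630072M18Rik (54 against 11) and A930007I19Rik (44 against 11). In 5 cells lay 66.7% of the positive UMIs of Mmp12, 83.3% of those of A630072M18Rik and 85.1% of those of Thbs1. Without the 5 cells richest in Ifnb1, Mmp12 had 1.19 and A630072M18Rik 1.18. Thbs1 changed direction in 3 alternative clusterings, to values from -1.46 to -0.47, so its direction is not settled here. Lower in positive cells were Hes1, a Notch target, at 39 against 157 (-1.93, interval -2.57 to -1.51), the cell cycle protein Cks2 at 10 against 48, the cytokine receptor Il21r at 10 against 44, Fchsd2 at 7 against 31 and Dlg4 at 5 against 26. Each of these 5 was less than 2-fold lower in at least 1 alternative, such as Hes1 at -0.70, Fchsd2 at -0.40 and Dlg4 at -0.82 under a coarser clustering, Cks2 at -0.91 with the KO library clustered alone, and Il21r at -0.33 without cells that had a Ccr7, Fscn1 or Cd3 UMI. The cell cycle list held 0 of 4 past 2-fold in this class and 0 of 6 in cDC2-like cells. Of the costimulation and maturation genes 2 of 12 were lower in positive resident macrophage-like cells, Ccr7 (13 against 101) and H2-M2 (23 against 52), and 1 of 11 in cDC2-like cells, Cd274 (98 against 216), with 0 higher in either. Ccr7 was found in 7 positive and 5 negative resident macrophage-like cells, and the lower sum in positive cells thus rests on few negative cells. Ccr7 is itself on the mature dendritic cell marker list. It gave 101 of that list's 166 UMIs in negative cells and 13 of its 23 in positive cells. Resident macrophage identity genes held 1 of 14, Maf, at least 2-fold lower (-1.01) and 0 higher, and all 10 markers of the class were within 2-fold.

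In cDC2-like cells the remaining high genes were AA467197 (149 against 24, or 2.37, with 79.2% of the positive UMIs in 5 cells and a ratio of 1.13 against all negative cells), Bbc3, a pro-apoptotic BH3 protein (55 against 6, or 2.34), and Axl, a receptor kinase that limits inflammation (71 against 12, or 2.09). The lowest was Plac8, at 16 against 214 UMIs (-3.32, interval -4.57 to -3.01), found in 6 positive and 19 negative cells. Prkcb (10 against 54), Lsmem1 (3 against 27), Zfp366 (8 against 40) and Zfp667 (7 against 35) were also lower, of which Zfp366 had -0.95 under a stricter cell filter. Itgae, the integrin CD103, and Epcam had 12 against 54 and 12 against 47. Of the 38 matched negative cells 11 came from the cluster led by Plet1 and Itgae, which held 1 positive cell. Matched within the same cluster, 89 of 3955 measured genes were at least 2-fold higher and 26 lower. Plac8 then had -2.44, Itgae -0.08 and Epcam -0.47, while 8 of 14 ISGs and 9 of 11 chemokines were at least 2-fold higher.

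Several resident macrophage identity genes were at least 2-fold higher in cDC2-like positive cells. Of 8 measured, Apoe, Cd81, C1qa, Mrc1 and Csf1r were at least 2-fold higher and 0 lower, with a median of 1.25. Of the positive cells' UMIs, 5 cells held 98.3% of the 116 of Apoe and 100% of the 37 of C1qa. For Cd81 and Mrc1 the top 5 cells held 60.3% and 39.2%. The 10 resident macrophage markers summed to 395 UMIs in positive and 114 in matched negative cells, and 12 of 38 positive against 6 of 38 negative cells had a C1q UMI. In an alternative chosen after seeing the data, cells with a C1q UMI were left out. Among the remaining 26 pairs 118 of 2997 measured genes were at least 2-fold higher. Of the lists, 8 of 11 ISGs and 8 of 10 chemokines were, with medians of 1.79 and 2.01. The ratios of the 12 high genes named for this class were at least 2-fold in all 13 alternatives run for it. Among these, requiring at least 100 UMIs could not change a ratio.

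Levels of the leading genes were also read against the number of Ifnb1 UMIs. In cDC2-like KO cells Cxcl10 had 103 CPM in matched negative cells (79.5 to 132), 498 in cells with 1 Ifnb1 UMI (409 to 600), 934 with 2 to 4 (822 to 1056) and 2644 with 5 or more (2359 to 2954), and 201 CPM in WT cells. Ifit1 had 32.8 CPM in negative cells and 269, 335 and 898 CPM over the same steps. Ccl5 had no such steps, with 1840, 1298 and 2076 CPM against 88.7 in negative cells. In resident macrophage-like cells Ccl4 had 7764 CPM in matched negative cells, 14036 and 14199 with 1 and with 2 to 4 Ifnb1 UMIs and 25281 with 5 or more, while WT cells had 1032. Cells with more Ifnb1 UMIs were not matched for depth among these steps, and the steps hold 7 to 17 cells each. Nfkbia showed no ordered change in either class, and Irf1 had 102 CPM at 1 UMI and 14.7 and 10.2 CPM at the higher steps in resident macrophage-like cells, from 2 UMIs at each of those steps.

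**Figure D5:**
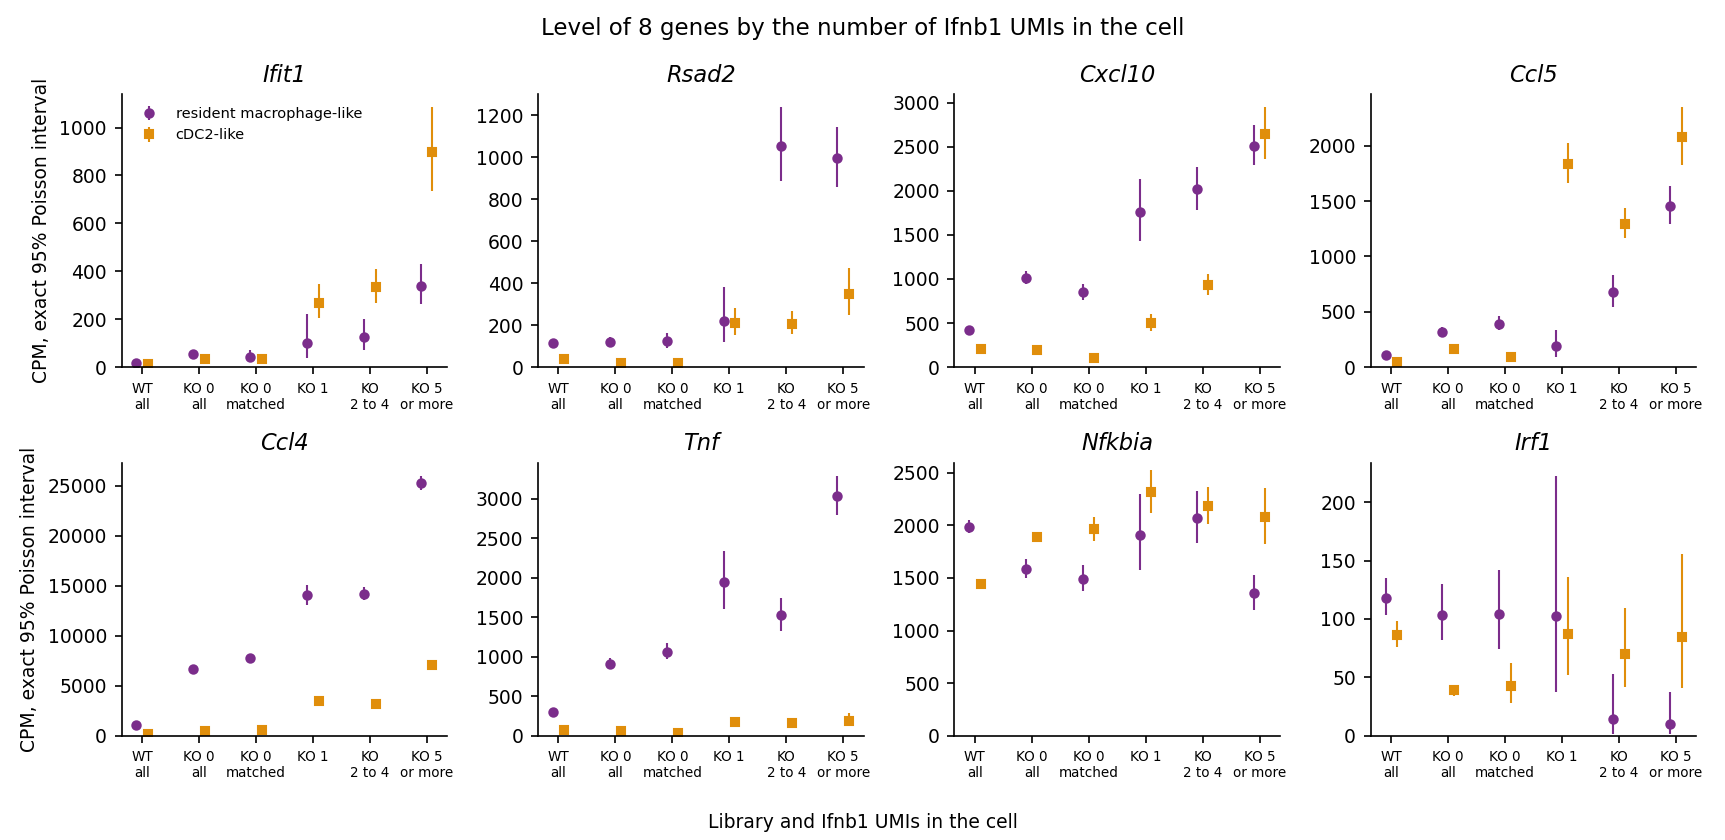
CPM (vertical, exact 95% Poisson intervals) of 8 genes in WT cells, all negative and matched negative KO cells, and KO cells with 1, 2 to 4 and 5 or more Ifnb1 UMIs, for resident macrophage-like (circles) and cDC2-like cells (squares). Cxcl10 in cDC2-like cells goes from 103 CPM in matched negative cells to 2644 at 5 or more UMIs, and Nfkbia shows no such order.

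The classes shared part of their profile. Among 2756 genes measured in both, 91 were at least 2-fold higher in cDC2-like and 58 in resident macrophage-like positive cells, and 19 were in both, which is 20.9% of the first list and 32.8% of the second. They included Ccl3, Ccl4, Ccl5, Cxcl1, Cxcl10, Ifit1, Isg15, Rsad2, Oasl1, Rtp4, Ifi205, Il10 and Tnf. In both unnamed clusters with at least 10 positive cells, contrasted after seeing the data, 6.59% of measured genes (Retnla cluster, 13 pairs) and 6.44% (Inhba cluster, 14 pairs) were at least 2-fold higher. Of the 12 genes named as high in cDC2-like cells, 9 of 10 measured were so in the Retnla cluster, 9 of 11 in the Inhba cluster and 7 of 11 in resident macrophage-like cells. Of the 12 named as high in resident macrophage-like cells the counts were 3 of 5, 4 of 7 and, in cDC2-like cells, 4 of 9. Ccl5 had 177 against 0 UMIs in the Retnla cluster and 271 against 55 in the Inhba cluster, and Ifit1 29 against 2 and 46 against 8. Some of the counted genes rest on few cells. Ccl17 was found in 3 positive and 3 negative cells of the Retnla cluster and in 2 and 1 of the Inhba cluster. Others were found in most positive cells, such as Cxcl10, in 12 against 7 and 14 against 8 cells. The ratios of Hspa1a pointed in opposite directions, at 33 against 83 and 39 against 9. The median mitochondrial share was 5.43% in positive and 3.18% in matched negative cells of the Retnla cluster, and its part in these ratios was not tested.

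Motif counts over the named genes were low in number. Over the 27025 genes of the promoter table, 23.9% held the IRF element, 3.46% the longer core and 1.36% the kB element. Of the 10 genes named as high in cDC2-like cells with an entry in the promoter table, 5 held the IRF element (Ifit1, Cxcl10, Rsad2, Isg15, Ccl3), 4 the longer core and 1, Cxcl10, the kB element. Of 9 named as high in resident macrophage-like cells 4 held the IRF element (Rsad2, Ifit1, Mmp12, Oasl1), 2 the longer core and 3 the kB element (Ifit2, A630072M18Rik, Cxcl3). Among the genes named as low, 0 of 6 and 1 of 7, Dlg4, held the IRF element, and none held the other 2.

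Over 29 class-by-library groups of at least 30 cells, the genes whose log2 level was most like that of Ifnb1 were Oasl1 (Pearson r 0.76), Gm15726 (0.74), Mmp12 (0.73), Ednrb (0.72) and Fcna (0.71), out of 12391 genes. The groups share 2 libraries and differ in depth, so r is a description. Oasl1 had 360 CPM in KO resident macrophage-like cells and 380 CPM in the KO Inhba cluster. Mmp12 had 611 CPM in KO and 175 CPM in WT resident macrophage-like cells. Fcna rests on 50 UMIs in all.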

How the data were processed

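The deposited matrices hold unnormalized UMI counts, by gene and barcode, which the authors made with Cell Ranger 3.0.2 (file header) on mm10 (submitters' processing notes, which also name Seurat 4). The cell numbers in the study's legend differ from the barcodes analysed here. Cells with 200 to 6000 genes and at most 15% mitochondrial UMIs were kept, as in the study, which removed 18.5% of WT and 16.8% of KO barcodes. Scrublet called 0 WT and 4 KO cells and was taken not to have worked, so doublets were treated only in an alternative. Both libraries were clustered together (2000 variable genes without Ifnb1 and listed genes that are not markers, 30 components, 15 neighbours, Leiden resolution 1; scanpy 1.11.5, leidenalg 0.10.2), and 17 of 21 clusters took a class from at least 3 raised markers. The study's own clustering (DESC) was not used, and class names are rebuilt. Positive and negative cells were paired on log10 total UMIs without Ifnb1 (within 0.1, without replacement). Named genes were the 12 highest and 8 lowest ratios per class with at least 15 pairs, among measured genes with a UMI in at least 25% of cells of the higher set, plus list members and the 5 genes most like Ifnb1. The gene, lists and rules were chosen with earlier results of these data known. Ratio intervals are conditional binomial, CPM intervals Poisson and share intervals Clopper-Pearson, at 95% (scipy 1.17.1). The limit beside a count of 0 is 3 counts of the total. The pairing and ratio steps were tested on simulated counts. Reads of near-identical copies (Hspa1a and Hspa1b, Ifit and Ccl families) may be split or lost in the authors' counting. Some listed or named genes are not reported here.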

Additional observations from a re-analysis of the deposited data

Results flagged for a closer look

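Ifnb1 was also present in barcodes that the cell filter removed and that no comparison above uses. These KO barcodes held 44 Ifnb1 UMIs in 19 of 506 barcodes (3.75%), against 0 UMIs in the 588 removed WT barcodes. Of the 44 UMIs, 24 lay in 16 of 499 barcodes with over 15% mitochondrial UMIs, none with more than 4, and 20 lay in 3 of 5 barcodes with over 6000 genes, 1 of which held 17. Ifnb1 UMIs in KO were thus not limited to the kept cells. These barcodes come from the same libraries on whose levels the gene was chosen, so the counts are a description only.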

How the results depend on the processing

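No paired analysis was possible because each genotype has 1 library, and for the same reason no library could be left out. Of 142 shares and counts recomputed under other settings, 120 stayed within the stated margin (1.5 times for counts, the interval for shares) and 22 did not. The number of measured genes differed between settings, so counts are given with it. In resident macrophage-like cells 147 of 4086 genes were at least 2-fold lower against all negative cells without matching. With up to 2 nearest negative cells 144 of 3939 were, and with a prior of 1 CPM 150 of 3093. With at least 100 UMIs required 22 of 1053 were lower and 39 higher. In cDC2-like cells the lower count was 26 of 3955 when matched within the same cluster and 114 of 3946 with a prior of 1 CPM (218 higher). It was 19 of 1591 with at least 100 UMIs (63 higher) and 33 of 3782 with the KO library clustered alone. Without the 5 cells richest in Ifnb1, 4 ISGs and 3 chemokines were higher in resident macrophage-like cells, and 1 immediate early gene was lower in cDC2-like cells. The positive share of resident macrophage-like cells was 19.3% at resolution 0.5, 21.2% with KO clustered alone and 22.3% after thinning, and that of cDC2-like cells 9.94% and 1.56% under the last 2. Lower immediate early genes in resident macrophage-like cells numbered 0 at resolution 0.5, and 1 with KO clustered alone or with all genes allowed among the variable genes. Thbs1 turned to -0.47, -1.46 and -0.66 under these 3 settings, and Epcam to 0.33 with KO clustered alone. The cause of these shifts was not tested. Over 13 alternatives per class the other named genes kept their sign. All 12 high cDC2-like genes but only 8 of 12 high resident macrophage-like genes were at least 2-fold higher throughout. Of the low genes, 5 of 8 cDC2-like and 2 of 8 resident macrophage-like were at least 2-fold lower throughout. Requiring at least 100 UMIs could not change a ratio in either class. Matching within the same cluster could not change one in resident macrophage-like cells. Thinning limits what can be said of cDC2-like cells, where most positive cells held few Ifnb1 UMIs.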
